A study of Mus musculus with 6 samples.

Results

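Heat shock proteins and their DNAJ cochaperones were described here in splenic germinal centre B cells. They were defined by symbol, as rows of the deposited count table. The symbols name HSP70, HSP110, HSP90, HSP60 and HSP10 chaperones, small heat shock proteins and DNAJ proteins. The 5 endoplasmic reticulum chaperones Hspa5, Hsp90b1, Dnajb9, Dnajb11 and Dnajc3 were left out by that definition. Other proteins of that compartment, such as Dnajc10, stayed in. The definition found 67 of 23412 rows, all with at least 1 count. DAF-TM mice carried Cg1-cre(+/-), a Cre allele of B cells that enter the germinal centre, and in addition R26-DAF-TM(fl/fl), a Cre-dependent transgene at the Rosa26 locus for DAF, the complement regulator that mouse Cd55 encodes. Cg1-cre mice, the controls, carried Cg1-cre(+/-) alone per the sample labels, while the header of the table writes the Cre allele as (+/fl) in both groups and the transgene locus as (+/+) in the controls. Both groups received sheep red blood cells intraperitoneally, and B220+ GL7+ Fas+ cells were sorted on day 10. The labels give neither the age of the mice nor whether a library came from 1 animal or from several.

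Each group has 3 labelled samples, but the columns of DAF-TM samples 2 and 3 were identical throughout; differing by less than sampling noise, they entered once, as DAF-TM library 2. That left 2 DAF-TM and 3 Cg1-cre libraries, with 10684753 to 11280400 and 7257339 to 12783965 counts. DAF-TM library 1 held transcripts of the female gene Xist and of Y-linked genes side by side (291 and 284 CPM, counts scaled to a common library size), DAF-TM library 2 and Cg1-cre library 1 were high in Xist alone, and Cg1-cre libraries 2 and 3 were high in Y-linked genes alone. Cd55 checked the labels: it stood at 713 and 726 normalised CPM in the DAF-TM libraries, against 28.7, 34.4 and 23.5 in the Cg1-cre libraries. The sort was reflected in the B cell list, 12 genes such as Cd79a that summed to 10199.9 to 10845 normalised CPM in DAF-TM and 10846 to 13329 in Cg1-cre libraries. Natural killer cell markers (12 genes) summed to 160.0 and 91.0 normalised CPM in DAF-TM libraries 1 and 2, against 40.1 to 58.0 in Cg1-cre libraries, and macrophage markers (13 genes) to 119.0 and 89.8, against 55.4 to 60.6. Neutrophil markers (10 genes) went the other way, at 24.7 and 66.2, against 102, 89.6 and 297, with Cg1-cre library 3 far above the rest. T cell markers (14 genes) summed to 298 and 306, against 296, 325 and 303. Most of that sum was Lck, with means of 218.5 normalised CPM in DAF-TM and 262.2 in Cg1-cre libraries. Lck was the only T cell marker with a negative log2 fold change (DAF-TM over Cg1-cre), and 13 were positive. Of these, 11 were higher in both DAF-TM libraries than in any Cg1-cre library. Called higher were 2 of the T cell, 9 of the natural killer, 4 of the macrophage and 1 of 10 dendritic cell markers. None of 4 tested erythroid markers was called higher. In the neutrophil list 1 gene was called lower. Their part in the values below was not tested. In such bulk samples fewer cells of a type and less RNA per cell cannot be told apart.

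HSP70 proteins bind exposed hydrophobic stretches of unfolded proteins and release them in a cycle of ATP hydrolysis. J domain proteins, which the Dnaj genes encode, deliver clients to HSP70 and stimulate its ATPase, HSP110 proteins act as nucleotide exchange factors, and HSP90 matures kinases, receptors and other signalling proteins. The chaperonin of Hspd1 and Hspe1 folds proteins in the mitochondrial matrix. Some of these genes are constitutive, whereas Hspa1a and Hspa1b are the classic targets of the heat shock factor HSF1, which binds inverted repeats of the unit GAA upstream of its targets. Germinal centre B cells divide rapidly, a state that needs continuous protein folding.

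Upstream sequences of 4 members are shown: Hspa1a and Hspa1b because they varied most between libraries and are near-identical here, Hsph1 and Hspe1 because they carry matches to the heat shock element at other distances. Each is the 150 bases before a start site in RefSeq (GRCm38.p6), read 5′ to 3′ in the direction of the gene. For Hsph1 that start site is an inner one, and the stretch lies within the gene's RefSeq span, chr5:149616843-149636498. Capitals mark matches to GAANNTTC or TTCNNGAA, each of which is its own reverse complement. They lie at chr17:34972157-34972306 (minus strand) for Hspa1a, chr17:34959239-34959388 (minus) for Hspa1b, chr5:149636337-149636486 (minus) for Hsph1 and chr1:55087998-55088147 (plus) for Hspe1.
Hspa1a: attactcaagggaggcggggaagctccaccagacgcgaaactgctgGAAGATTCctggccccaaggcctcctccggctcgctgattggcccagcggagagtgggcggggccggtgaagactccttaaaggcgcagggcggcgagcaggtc
Hspa1b: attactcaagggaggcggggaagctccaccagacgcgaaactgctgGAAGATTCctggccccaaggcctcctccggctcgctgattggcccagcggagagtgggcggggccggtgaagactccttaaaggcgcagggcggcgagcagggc
Hsph1: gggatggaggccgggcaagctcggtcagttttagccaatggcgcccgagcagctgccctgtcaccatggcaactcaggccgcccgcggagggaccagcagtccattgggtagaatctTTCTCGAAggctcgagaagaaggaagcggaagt
Hspe1: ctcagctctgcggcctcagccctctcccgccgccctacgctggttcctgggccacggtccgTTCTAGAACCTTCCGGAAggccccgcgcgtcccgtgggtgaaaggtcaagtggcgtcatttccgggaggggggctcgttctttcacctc

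The Hspa1a and Hspa1b stretches differed at 1 of 150 positions, and each had its match starting 104 bases before the start site. Hsph1 had 1 match, 33 bases before its inner start site. Hspe1, which is divergently transcribed from the same region as Hspd1, had 3 overlapping matches that form a single run. Over the 300-base windows RefSeq gives for 53 of the 67 genes (250 bases before to 50 after a start site), 16 of the 53 held GAANNTTC or TTCNNGAA in at least 1 window, which is 30.2%, compared with 16.97% of 27025 genes. The longer form of 3 units, GAANNTTCNNGAA or its reverse complement TTCNNGAANNTTC, which contains the shorter ones, was present for 4 of the 53 (Dnajb6, Hspd1, Hspe1 and Hsph1; 7.55%), compared with 0.662% of all genes. The Hsph1 match of 3 units is not in the stretch printed above. A match is a run of letters and not a measured binding site.

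No heat shock or DNAJ gene passed the test between DAF-TM and Cg1-cre cells. Of 67 genes 60 passed the low-count filter, and 0 of these 60 were called higher and 0 lower by edgeR's quasi-likelihood test (adjusted p under 0.05), against 0.373% and 0.0373% (0.41% in either direction) of 18767 genes tested. DESeq2 and limma-voom also called 0. At an unadjusted p under 0.05 edgeR listed 5 of the 60, Hspa8 and Hsph1 with positive and Dnajc10, Hspa1l and Dnajb4 with negative values, where 5.74% of all genes tested reached that level (3.68% positive and 2.06% negative); DESeq2 listed 2 and limma-voom 5. Of the 60 log2 fold changes (DAF-TM over Cg1-cre) 26 were positive and 34 negative. Their median was -0.05, against 0.03 over all genes tested.

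**Figure D1:**
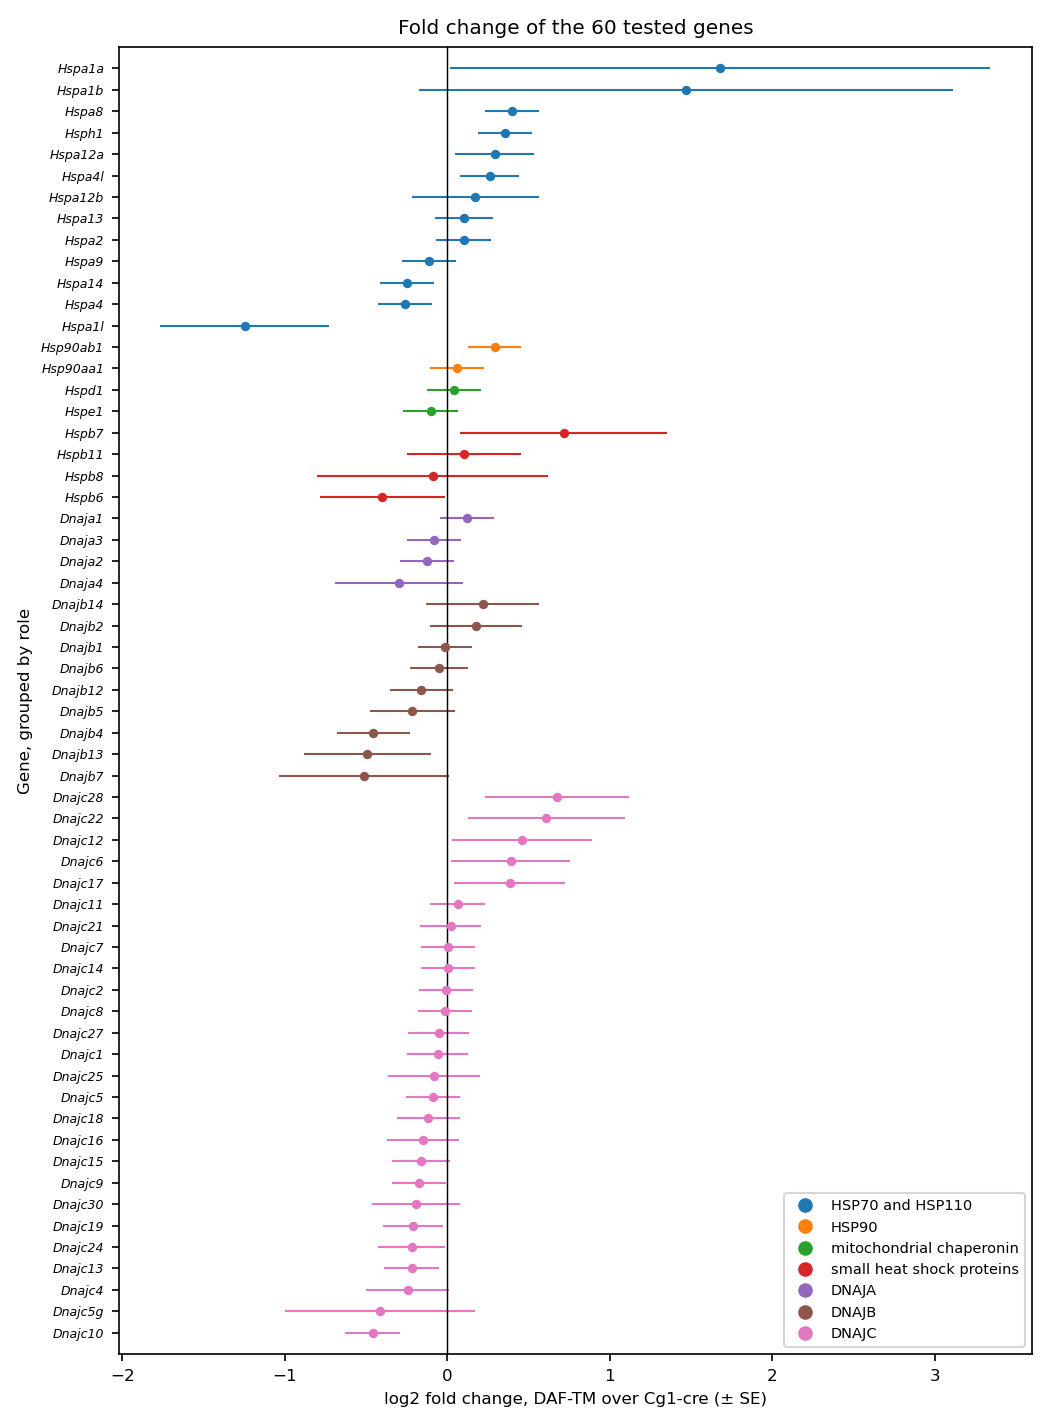
Log2 fold change (DAF-TM over Cg1-cre, x axis) with its standard error for each of the 60 genes tested, grouped by role on the y axis. Apart from Hspa1a and Hspa1b, whose error bars are wide, and Hspa1l (-1.25, SE 0.52), every gene lies between -0.51 and 0.72.

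The median fold change of all genes tested differed by level in these libraries. Among genes with a mean of at least 10 normalised CPM the median log2 fold change was -0.06 for the 41 members and -0.08 for all 9049 genes, and under 10 CPM it was 0.17 for 19 members and 0.23 for 9718 genes. In narrower classes the few members did not all follow: between 1 and 2 CPM the median was -0.41 for 3 members and 0.24 for all genes, and between 512 and 1024 CPM it was 0.07 for 2 members and -0.17 for all genes. The groups did not overlap in 5 members that were higher and 9 that were lower in DAF-TM, which is 8.33% and 15.0% of the 60, where the same held for 11.3% and 9.02% of all genes tested. At 10 CPM and above the shares were 2.44% and 14.6% of members and 4.80% and 16.1% of all genes. Under 10 CPM they were 21.1% and 15.8% of the 19 members tested, and 17.3% and 2.44% of all genes.

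**Figure D2:**
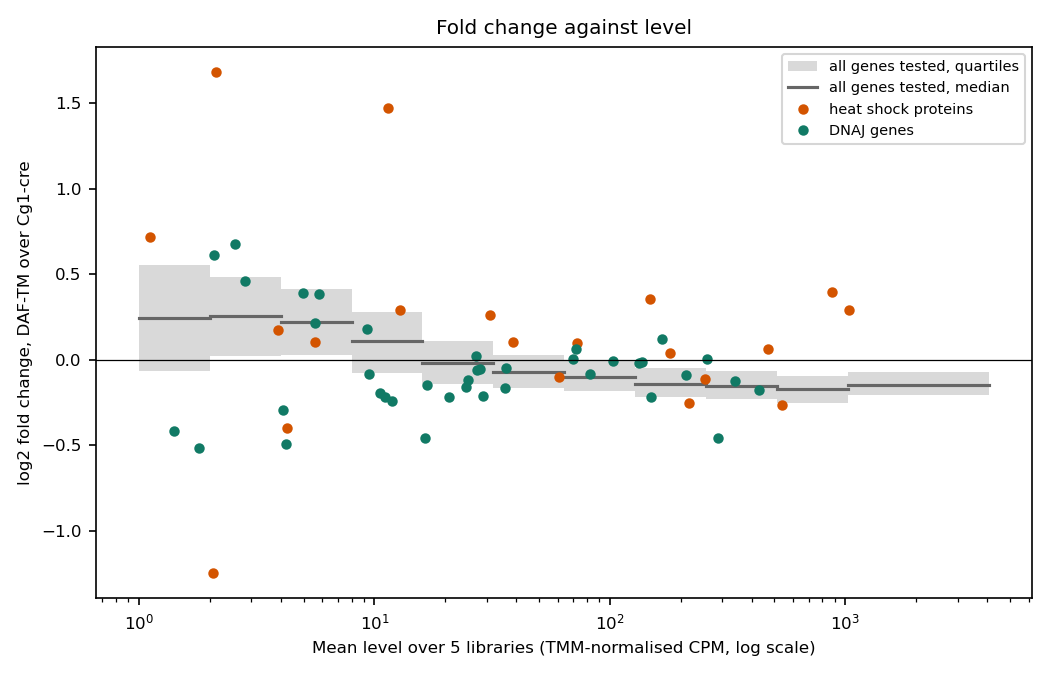
Log2 fold change (DAF-TM over Cg1-cre) against the mean level over the 5 libraries (log scale), with heat shock and DNAJ genes as points and the median and quartiles of all tested genes per level bin as grey lines and boxes. Abundant genes of all kinds had medians a little below 0, from -0.14 to -0.17 above 128 CPM. Among members of that level Hspa8, Hsph1 and Hsp90ab1 stand highest (0.40, 0.36 and 0.29). Dnaja1, Hsp90aa1, Hspd1, Dnajc7, Dnajb1 and Dnajc8 also lie above the upper quartile of their bin. Dnajc10, Hspa4, Hspa14 and Dnajc13 lie below the lower quartile.

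Levels per exon length were set by a few constitutive chaperones. In normalised CPM per kb of merged exons, Hsp90ab1, a cytosolic HSP90, stood highest, at 388 ± 40.8 in DAF-TM and 317 ± 29.1 in Cg1-cre cells (SD, n = 2 and 3). Hspa8, the constitutive cytosolic HSP70, stood at 238 ± 50.7 in DAF-TM and 181 ± 44.4 in Cg1-cre cells. Dnajc9, a histone chaperone with a J domain, came next with 167 ± 12.7 and 189 ± 5.97. Hspa8 stood above Dnajc9 in DAF-TM cells, and in Cg1-cre cells their values lay within the spread of Hspa8. The pair that followed was Hsp90aa1 (123 ± 4.07 in DAF-TM and 118 ± 15.9997 in Cg1-cre) and Dnaja2 (109 ± 10.97 and 118 ± 13.7), which in Cg1-cre cells did not differ beyond their spread. The inducible Hspa1b (6.59 ± 7.61 and 2.37 ± 2.99) and Hspa1a (1.23 ± 1.70 and 0.377 ± 0.231) ranked 36 and 55 of the 67. Merged exons hold every annotated exon, in use in these cells or not, so these ranks depend on the annotation. By mean normalised CPM over the 5 libraries, Hspa4 (540) and Hsp90aa1 (471) stood above Dnajc9 (429). Together the 67 genes took 0.736% and 0.698% of the counts in DAF-TM libraries 1 and 2, against 0.687%, 0.626% and 0.640% in Cg1-cre libraries 1 to 3. In normalised CPM the same sum was 7483 and 6305 in DAF-TM libraries, against 7004, 6801 and 6339.7 in Cg1-cre libraries, so that the groups overlapped and DAF-TM library 2 was the lowest of the 5.

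**Figure D3:**
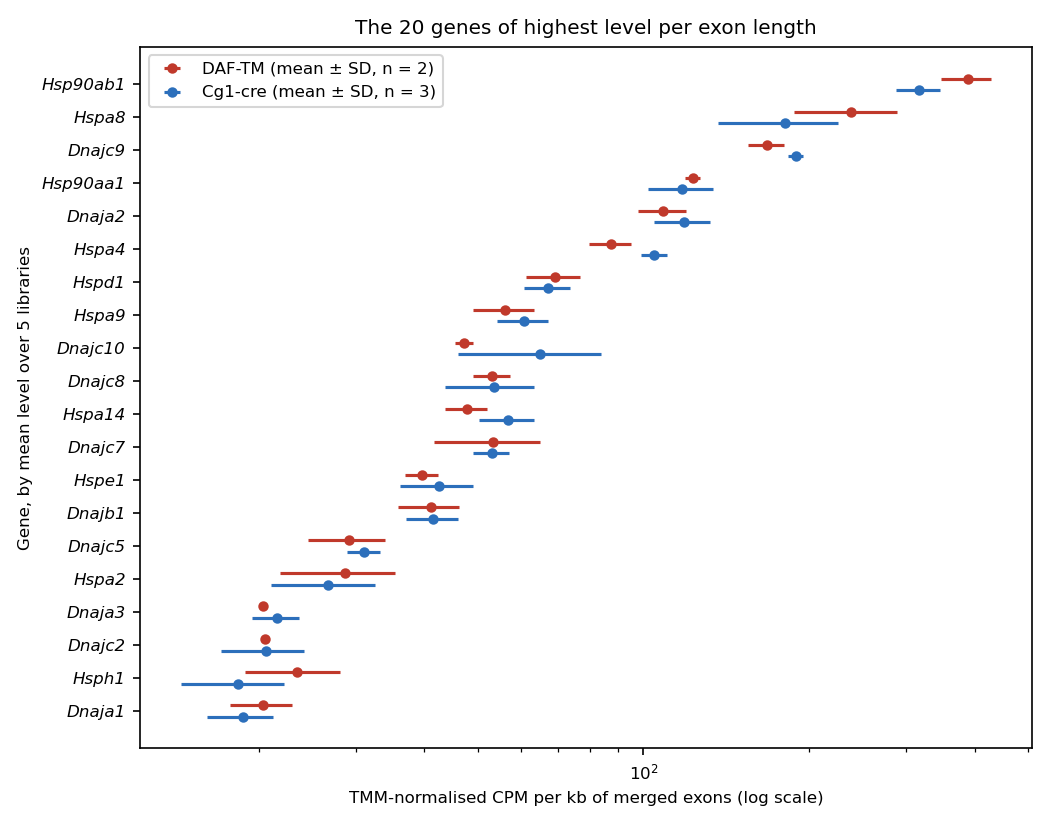
Mean ± SD of normalised CPM per kb of merged exons (log scale) in DAF-TM (red, n = 2) and Cg1-cre (blue, n = 3) cells for the 20 members of highest level. Hsp90ab1 leads at 388 and 317, Dnaja1 closes the row at 20.4 and 18.7, and the error bars of the groups meet for most genes.

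Among the HSP70 genes, the stress-inducible pair varied far more between libraries of 1 group than between the groups. Hspa1b stood at 33.5 and 3.38 normalised CPM in DAF-TM libraries 1 and 2, against 16.3, 1.19 and 2.46 in Cg1-cre libraries 1 to 3, from 372, 40, 154, 14 and 18 counts. The groups overlapped, with DAF-TM library 1 and Cg1-cre library 1 high and the other 3 low. The log2 fold change was 1.47 with an SE of 1.64 (edgeR adjusted p = 0.955). Hspa1a had 80 and 1 counts in DAF-TM libraries 1 and 2, against 18, 9 and 5 in Cg1-cre libraries, or 7.21 and 0.0846 against 1.91, 0.764 and 0.682 normalised CPM. The highest and the lowest value were thus both in the DAF-TM group (log2 fold change 1.68, SE 1.66, adjusted p = 0.951). With limma-voom the log2 value of Hspa1a was -0.22, and that of Hspa1b was 1.55 with a smaller SE of 0.59 (limma-voom adjusted p = 0.701). Without DAF-TM library 1 the log2 values turned to -3.56 for Hspa1a and -0.98 for Hspa1b. Without DAF-TM library 2 that of Hspa1a was 2.67 and was called (adjusted p = 0.000106, where its alternatives ran up to 0.999985), in a fit with 1 DAF-TM library. Without Cg1-cre library 1 Hspa1b stood at 3.40, with an SE of 1.87.

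The ratio of the highest to the lowest library was 85.3 for Hspa1a and 28.2 for Hspa1b, and 9 and 15 of 17756 genes with a mean of at least 1 CPM had a larger one. The lowest value of Hspa1a rests on 1 count. The 2 genes lie on chromosome 17 (34969359 to 34972156 and 34956429 to 34959238, GRCm38) and share much of their sequence: 47.1% of the 100-base windows of the Hspa1a transcript and 49.9% of those of Hspa1b occur unchanged in the other. The sources used here do not give how reads common to both were counted, and their single values are uncertain. Summed into 1 row the pair stood at 40.8 and 3.47 normalised CPM in DAF-TM libraries, against 18.2, 1.95 and 3.14 in Cg1-cre libraries, with a log2 fold change of 1.503 (SE 1.60, adjusted p = 0.953).

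Hspa8 and Hsph1 ranked the libraries in the same order as Hspa1b, over a much narrower range. Hspa8 stood at 1179 and 871 normalised CPM in DAF-TM libraries, against 958, 578 and 799 in Cg1-cre libraries (log2 fold change 0.40, SE 0.16, unadjusted p = 0.0162, adjusted p = 0.716). Hsph1, an HSP110 exchange factor, stood at 194 and 147, against 155, 101 and 144 (0.36, SE 0.17, adjusted p = 0.821). In both genes Cg1-cre library 1 exceeded DAF-TM library 2, so the groups overlapped. Without DAF-TM library 1 the log2 values were 0.16 and 0.13, and without Cg1-cre library 2 they were 0.22 and 0.19.

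The order of the 5 libraries in Hspa1b was shared by 4 of the 59 members with a mean of at least 1 CPM, counting Hspa1b itself: the others were Hspa8, Hsph1 and Hspa12a, a distant HSP70 relative. It was shared by 0.659% of the 17756 genes of that level. In 12 of the 59 (20.3%) DAF-TM library 1 and Cg1-cre library 1 both exceeded the other 3 libraries, compared with 7.72% of all genes. These 12 were Hspa1a, Hspa1b, Hspa2, Hspa8, Hspa12a, Hsph1, Hsp90aa1, Hspd1, Dnaja1, Dnajb1, Dnajc18 and Dnajc21. Of 72 pathway genes outside these families (HSF factors, cochaperones, chaperonin and other folding genes) 0 shared the order of Hspa1b. Both libraries exceeded the rest in 5 of the 72 (6.94%). The median ratio of highest to lowest library was 1.44 over the 59 and 1.58 over the 17756 genes, with no match for level. In 1 member, Dnajc15, DAF-TM library 1 and Cg1-cre library 1 were both below the other 3, as in 8.56% of all genes. The order was noticed in the data and is given as a description of these libraries, which also differ in depth and in the sex-linked transcripts named above.

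Immediate early genes, which many stimuli induce, handling of cells included, were set beside these values. Jun stood at 58.6 and 13.5 normalised CPM in DAF-TM libraries, against 18.4, 4.08 and 12.1 in Cg1-cre libraries, the same order as Hspa1b (adjusted p = 0.945). Fos stood at 12.3 and 6.68, against 8.90, 3.57 and 3.55 (adjusted p = 0.620). Of the 17 immediate early genes tested 0 were called by edgeR. An unadjusted edgeR p under 0.05 was reached by 3 (17.6%, against 5.74% of all genes tested), Fos, Fosb and Ier2. In 5 (29.4%, against 7.72% of all genes), Jun and Fos among them, DAF-TM library 1 and Cg1-cre library 1 were both higher than the rest. In Fosb (0.741) and Ier2 (15.4) Cg1-cre library 1 was instead the lowest. The summed level of the 17, 1017 and 791 in DAF-TM and 819, 892 and 861 in Cg1-cre libraries, did not follow the order of Hspa1b. Their part in the chaperone values was not tested.

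**Figure D4:**
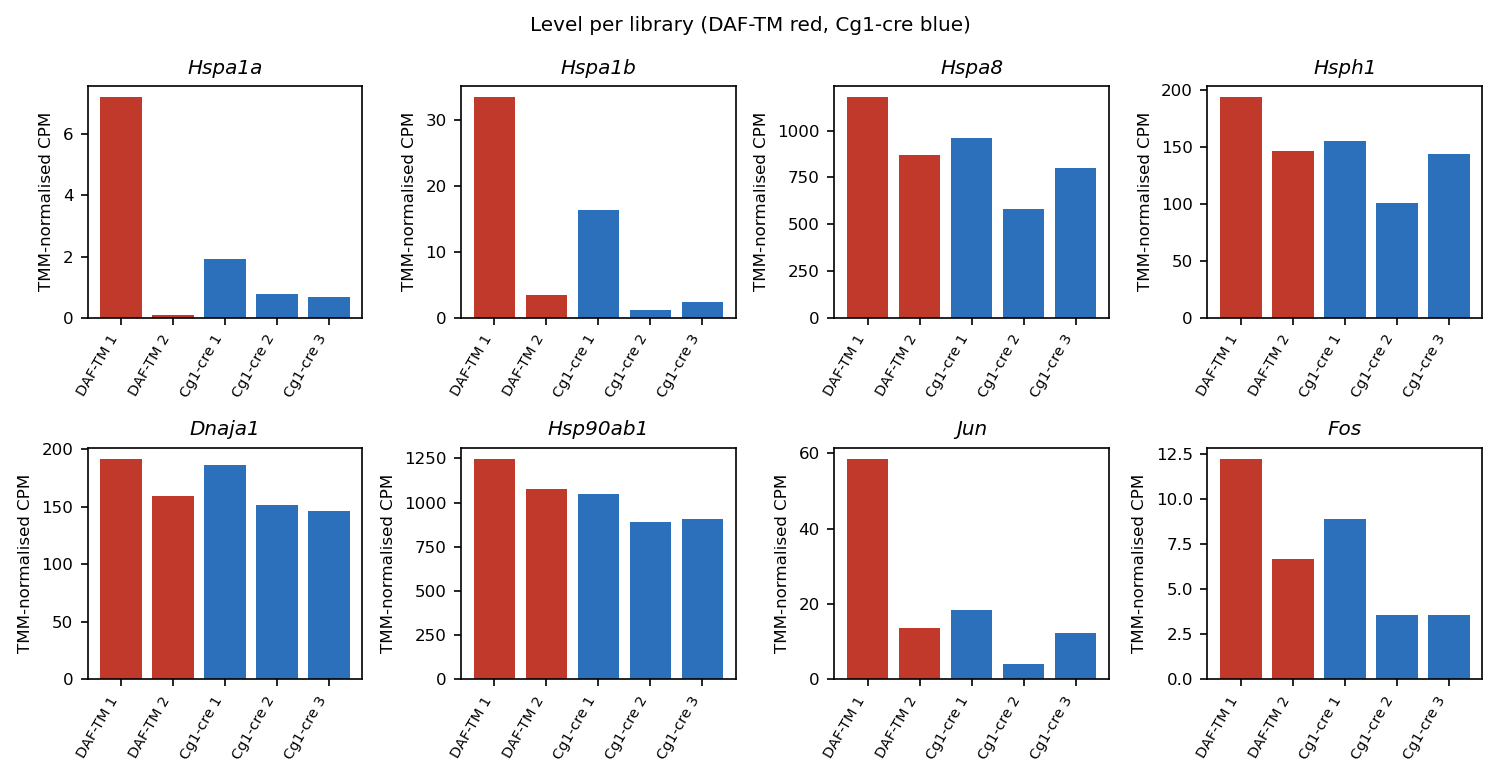
Normalised CPM per library (1 bar each, DAF-TM red on the left, Cg1-cre blue on the right) of 6 chaperone genes and the immediate early genes Jun and Fos. DAF-TM library 1 is highest in all 8 panels, and Cg1-cre library 1 is second in all of them but Hsp90ab1, where it stands at 1050.3 and DAF-TM library 2 at 1077.

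Of all 13 genes in the HSP70 and HSP110 class 9 had positive and 4 negative values, and none were called. Hspa4, the abundant HSP110 of the cytosol, stood at 513 and 452 normalised CPM in DAF-TM libraries, against 561, 615 and 560.0 in Cg1-cre libraries. Both DAF-TM values were below all 3 Cg1-cre values, without passing the test (log2 fold change -0.26, SE 0.17, adjusted p = 0.945). Hspa14, a ribosome-associated HSP70, had 206 and 182, against 230.2, 257 and 204 (-0.25, SE 0.17, adjusted p = 0.945), with DAF-TM library 1 just above Cg1-cre library 3. The mitochondrial Hspa9 had 263 and 220.3, against 248, 294 and 243 (-0.11, SE 0.17, adjusted p = 0.965), a spread within groups as wide as the difference. Hspa2, a relative known best from testis, stood at 88.5 and 63.1, against 83.2, 53.8 and 75.3 (0.10, SE 0.17), and its 2 highest libraries were DAF-TM library 1 and Cg1-cre library 1. Hspa4l, an HSP110, had 40.3 and 28.5, against 26.8, 29.2 and 30.0 (0.26, SE 0.18, adjusted p = 0.945), high in DAF-TM library 1 alone. Hspa13, Hspa12a and the sparse Hspa12b had log2 values of 0.10, 0.29 and 0.17. Hspa1l, a neighbour of Hspa1a known for its use in spermatids, was low throughout, with 14 and 12 counts in DAF-TM and 31, 38 and 11 in Cg1-cre libraries. Its normalised CPM of 1.26 and 1.01, against 3.28, 3.23 and 1.501, did not overlap and gave the lowest log2 value of the class (-1.25, SE 0.52, adjusted p = 0.713).

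Both cytosolic HSP90 genes were close between the groups. Hsp90ab1 stood at 1249.7 and 1077 normalised CPM in DAF-TM libraries, against 1050.3, 891 and 908 in Cg1-cre libraries. The DAF-TM values lay above all 3 Cg1-cre values, the lower one by a small margin (log2 fold change 0.29, SE 0.16, unadjusted p = 0.0747, adjusted p = 0.910), and the log2 value was 0.17 without DAF-TM library 1. Hsp90aa1, the more inducible form, had 494 and 471, against 505, 492 and 391 (0.06, SE 0.17, adjusted p = 0.981). Its lowest library was Cg1-cre library 3, and the groups overlapped. The chaperonin gene Hspd1 stood at 197 and 168, against 193, 180.4 and 159 (0.04, SE 0.17), and its partner Hspe1 at 55.6 and 61.3, against 65.9, 70.1 and 52.0 (-0.10, SE 0.17). The pair shares a promoter region, and DAF-TM library 2 was the lower of the DAF-TM libraries in Hspd1 and the higher in Hspe1.

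Small heat shock proteins, many of which hold unfolded proteins without using ATP, were at low levels. Their 8 genes summed to 13.0 and 14.5 normalised CPM in DAF-TM libraries, against 13.7, 14.5 and 12.6 in Cg1-cre libraries. Only Hspb6, Hspb7, Hspb8 and Hspb11 were tested, with log2 values from -0.40 for Hspb6 to 0.72 (SE 0.64) for Hspb7. Hspb6 stood at 3.61 and 3.55 normalised CPM in DAF-TM libraries, against 5.30, 5.10 and 3.68 in Cg1-cre libraries, without overlap (adjusted p = 0.949). Hspb11, an intraflagellar transport protein, was the highest of the class at 4.64 to 6.79 and overlapped between the groups. Hspb1, the HSF1-inducible HSP25 of the mouse, had 4 and 8 counts in DAF-TM libraries, against 8, 6 and 6 in Cg1-cre libraries, and was not tested. Hspb2, Hspb3 and Hspb9 were also too low, at 0 to 10 counts. The count of 0, for Hspb3 in Cg1-cre library 2, allows up to 0.255 normalised CPM for counting error only.

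DNAJ genes of classes A and B, the canonical partners of HSP70, held no called gene. Negative values outnumbered positive ones, as they did among all genes of at least 10 CPM, where 2893 were positive and 6156 negative. Under 10 CPM 7217 of all genes were positive and 2501 negative. Of the tested class A and B genes at that level Dnajb2 and Dnajb14 were positive, and Dnaja4, Dnajb7 and Dnajb13 negative. Of 4 Dnaja genes 1 was positive and of 9 tested Dnajb genes 2 were, with class medians of -0.10 and -0.16. Dnaja1 stood at 192 and 159.6 normalised CPM in DAF-TM libraries, against 187, 151 and 146 in Cg1-cre libraries (log2 fold change 0.12, SE 0.17). Dnaja2 had 346 and 299.98, against 337, 398 and 320.4 (-0.12, SE 0.17). Dnajb1, the DNAJ partner most tied to the heat shock response, had 143 and 119.8, against 149, 123 and 127 (-0.02, SE 0.17, adjusted p = 0.995), and did not share the wide range of Hspa1b. Dnajb6, an inhibitor of protein aggregation, was level at 37.3 and 33.9, against 34.2, 42.2 and 34.0 (-0.05, SE 0.18). Dnajb4 was lower in both DAF-TM libraries, 14.9 and 11.9, than in Cg1-cre libraries, 15.5, 22.5 and 16.9, without passing the test (-0.46, SE 0.23, unadjusted p = 0.0434, adjusted p = 0.855). Dnajb13 and Dnajb7, both known from testis, were the other large negative values of the class, at -0.49 (SE 0.39) and -0.51 (SE 0.52), from means of 3.36 and 1.44 normalised CPM in DAF-TM and 4.75 and 2.05 in Cg1-cre cells. Dnajb2, known best from neurons, was the only Dnajb gene without overlap in the positive direction, at 10.1 and 9.98, against 8.58, 8.66 and 9.41 (0.18, SE 0.28). The remaining Dnaja3, Dnaja4, Dnajb5, Dnajb12 and Dnajb14 overlapped between the groups, with log2 values from -0.29 for Dnaja4 to 0.22 for Dnajb14. Dnajb3 and Dnajb8 had 2 to 10 counts and were not tested.

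The Dnajc class, whose members combine the J domain with varied other parts, held the lowest p of all members. Dnajc10, a disulfide reductase of the endoplasmic reticulum, stood at 243 and 229.8 normalised CPM in DAF-TM libraries, against 255, 431 and 286 in Cg1-cre libraries. Both DAF-TM values were below all 3 Cg1-cre values, but Cg1-cre library 1 was close to them and library 2 stood far above (log2 fold change -0.46, SE 0.17, unadjusted p = 0.00686, adjusted p = 0.519). Without Cg1-cre library 2 the log2 value was -0.20. Of the 26 Dnajc genes tested 9 were positive and 17 negative, with a median of -0.07. Dnajc9 had 419 and 376, against 456, 458 and 433 (-0.18, SE 0.17, adjusted p = 0.949), without overlap. Its difference was near its SE, which rested mostly on the spread shared by all genes. Dnajc7, a cochaperone that binds both HSP70 and HSP90, had 299 and 219, against 258, 277 and 238 (0.01, SE 0.17), and Dnajc2, which acts at the ribosome, 104 and 103, against 101, 123 and 87.7 (-0.01, SE 0.17). The largest positive values came from sparse genes: Dnajc28 had means of 3.32 normalised CPM in DAF-TM and 2.03 in Cg1-cre cells (0.68, SE 0.44), Dnajc22 2.62 and 1.71 (0.61, SE 0.48) and Dnajc12 3.40 and 2.44 (0.46, SE 0.43). All 3 were higher in both DAF-TM libraries than in any Cg1-cre library, at levels where the median of all genes was also positive, 0.25 between 2 and 4 CPM. Dnajc5g, a testis relative of the cysteine string protein, was the most negative sparse gene of the class (-0.41, SE 0.58). Dnajc13, an endosomal J protein, stood at 151 and 122, against 157, 167 and 154 (-0.22, SE 0.17, adjusted p = 0.945), and Dnajc24, needed for diphthamide synthesis, at 19.7 and 18.1, against 22.1, 23.6 and 20.2 (-0.22, SE 0.21, adjusted p = 0.949). Both were lower in each DAF-TM library than in any Cg1-cre library. The other 16 tested genes of the class overlapped between the groups, with log2 values from -0.24 for Dnajc4 to 0.39 for Dnajc6. Dnajc5, the cysteine string protein of secretory vesicles, was among the more abundant of them at 226 and 180.2, against 211, 233 and 204 (-0.09, SE 0.17), and Dnajc8, a splicing-associated J protein, had 143 and 129, against 136, 162 and 112 (-0.01, SE 0.17). Dnajc5b had 2 to 10 counts and was not tested.

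Outside these families, 73 genes of the same pathway were tested, the HSF factors, cochaperones of HSP70 and HSP90, other J domain genes, the cytosolic chaperonin TRiC with prefoldin, and other folding genes. None were called higher or lower by edgeR, DESeq2 or limma-voom, and 0 had an unadjusted p under 0.05 by edgeR. The median log2 fold change was -0.07. Hsf1, the master regulator of the heat shock response, stood at 51.6 and 46.1 normalised CPM in DAF-TM libraries, against 45.8, 38.1 and 46.2 in Cg1-cre libraries, which overlapped (0.17, SE 0.17, adjusted p = 0.949). TRiC and prefoldin genes had 12 of 13 negative values and a median of -0.14. The TRiC genes and Vbp1 had means of 262 to 668 CPM. All genes there had medians of -0.15 (256 to 512 CPM) and -0.17 (512 to 1024 CPM). The other prefoldin genes had means of 19.1 to 110 CPM, where medians of all genes ran from -0.02 (16 to 32 CPM) to -0.10 (64 to 128 CPM). The genes of lowest p in the whole list were Vbp1, a prefoldin subunit (-0.32, SE 0.17, edgeR adjusted p = 0.886), Tcp1, a TRiC subunit (-0.21, SE 0.17), and Ttc1 (-0.21, SE 0.17) among negative values. Among positive ones they were Hmox1, heme oxygenase (0.53, SE 0.30, adjusted p = 0.910), Serpinh1, the collagen chaperone (0.59, SE 0.47), and Hsbp1l1 (0.68, SE 0.60). Hmox1 had 13.5 and 6.85 normalised CPM in DAF-TM libraries, against 7.41, 6.11 and 7.64, so its value came from DAF-TM library 1.

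The 5 endoplasmic reticulum chaperones left out were high in DAF-TM library 1 and no higher than the controls in DAF-TM library 2, with a sum of 2891 and 1573 normalised CPM, against 1919, 1975 and 1798 in Cg1-cre libraries. Hsp90b1, the HSP90 of that compartment, stood at 1325 and 604, against 772, 804 and 716 (log2 fold change 0.34, SE 0.18, adjusted p = 0.909), and Hspa5, its HSP70, at 1111 and 672, against 796, 801 and 748 (0.19, SE 0.16). DAF-TM library 2 was the lowest of the 5 in both. Without DAF-TM library 2 Hsp90b1 was called (0.79, adjusted p = 0.00894), in a fit with 1 DAF-TM library that was assumed to vary like the Cg1-cre libraries, and without DAF-TM library 1 it stood at -0.35; its adjusted p over all alternatives ran up to 0.999985. Dnajc3, Dnajb9 and Dnajb11 had log2 values of 0.10, 0.14 and 0.08, none called.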

How the data were processed

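RNA was sequenced from 6 samples of sorted splenic germinal centre B cells. Libraries were made from 10 ng of RNA each with SMART-Seq v4 and oligo-dT priming, per the labels' protocols, and 12 of them shared 1 lane with single-end reads of 100 nt. The values the authors deposited are raw counts, 1 row a gene symbol, without normalization, made with bcl2fastq, HISAT2 and featureCounts on mm10 per the submitters' processing notes and the file header. No source used here gives the annotation, the strand setting or the handling of multiply aligned reads, so paralogs and overlapping genes are uncertain. Such libraries carry no molecular identifiers, so limits cover counting error only. Nothing says that libraries came from separate mice, so p-values measure the spread between these libraries. In edgeR that spread was, for most genes, largely a value shared by all genes. In 27 of 23412 rows the symbol had become a date; they stayed in the library sizes.

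Counts were tested with edgeR 4.0.16 in R 4.3.3 (limma 3.58.1): normalization by TMM, low counts filtered with filterByExpr (by group), then robust glmQLFit and glmQLFTest (two-sided), Benjamini-Hochberg adjusted over 18767 genes. Adjusted p-values come from that test unless another tool is named. Normalised CPM are counts over TMM-scaled library sizes. The SE is the unshrunken log2 fold change divided by the square root of F. For most genes it hardly reflects the gene's own spread. A gene's libraries gave 3 degrees of freedom, and the shared estimate weighed as much as 1152.85 (median). Dnajc9 and Dnajc10 thus had SEs of 0.166 and 0.169. Their SDs among Cg1-cre libraries were 3.16% and 29.0% of the mean. The identical columns were used once, so 5 libraries entered in place of the planned 6. A count of 0 was given a limit of 3 counts. All 67 symbols were matched to RefSeq GRCm38.p6 positions and GENCODE M21 exon lengths. The members and lists were chosen with earlier results of these data known. Of the B cell marker list, 2 genes are not reported here. Named were members past the threshold (there were none), the 6 largest log2 fold changes each way at a mean of at least 1 CPM, the 10 most abundant, a fixed set, the members left out, and pathway genes past the threshold or of lowest p, 3 each way. Jun, Fos, Hsf1, the genes of the library order and other members outside that rule were picked with their values in view. The procedure was tested on simulated data. DESeq2 1.42.0, limma-voom, RLE and upper-quartile factors, other filters, a replicate block, a summed Hspa1 pair and the omission of each library were tried.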

Additional observations from a re-analysis of the deposited data

How the results depend on the processing

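With 2 and 3 libraries, small differences in level were not detectable. No member and no pathway gene was called with either other scaling, either other filter, DESeq2, limma-voom, the replicate block or the summed Hspa1 pair. Without each library in turn the members called higher ran from 0 to 1 (Hspa1a, without DAF-TM library 2), the members called lower stayed at 0, and the members' median log2 fold change ran from -0.16 to 0.0565. Of 18767 genes 77 were called, against 39 with upper-quartile factors, 28 with DESeq2, 51 with limma-voom and 14 to 118 without each library in turn. The replicate number as a block gave 61 calls, none a member. The lowest member p in that edgeR fit was that of Hspa1b (unadjusted p = 0.000446, adjusted p = 0.112). Its log2 value there was 1.20 with an SE of 0.34, against an SE of 1.64 without the block. No label ties a number to a litter or batch. Same-numbered libraries deviated from their group means with correlations of -0.12 and -0.25 over all genes tested. With 2 DAF-TM libraries these correlations are not independent, and they cannot settle whether libraries of the same number were paired. Some values turned sign: Dnajc7 with RLE factors (-0.0171), DESeq2 (-0.0171), limma-voom (-0.00938) and the replicate block (-0.0637), Dnajb1 (0.0498), Dnajb6 (0.0248) and Dnajc2 (0.0703) with upper-quartile factors, Hspa1a (-0.22, against 1.68 in edgeR) and Dnajc2 (0.00266) with limma-voom, and Hsp90aa1 (-0.0478) and Hspd1 (-0.0366) with the block. Without each library in turn log2 values ran from -3.56 to 2.67 for Hspa1a, -0.98 to 3.40 for Hspa1b, -1.29 to 0.11 for Dnajc5g, -0.0232 to 0.25 for Dnaja1, -0.16 to 0.11 for Dnajb1, -0.13 to 0.0606 for Dnajb6, -0.10 to 0.13 for Dnajc2, -0.24 to 0.21 for Dnajc7, -0.0308 to 0.13 for Hsp90aa1, -0.25 to 0.00943 for Hspa9, -0.0881 to 0.15 for Hspd1, -0.20 to 0.31 for Dnajb11, -0.33 to 0.42 for Dnajc3, -0.22 to 0.51 for Hspa5, -0.35 to 0.79 for Hsp90b1, -0.0432 to 0.94 for Hmox1 and -0.22 to 1.09 for Serpinh1. The cause was not tested. Hspa1a was not tested at a minimum of 1 CPM in 3 libraries, nor without Cg1-cre library 1. Its range over the omitted libraries therefore lacks that omission.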
